A study of Mus musculus with 4 samples.

Results

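The transcripts described here are those of ion channel genes, measured in Neuro-2A cells 16 h after transfection with Zac1 or with a control plasmid. Members were taken by gene symbol: the potassium channel (Kcn), voltage-gated calcium (Cacn) and sodium (Scn) channel, pacemaker (Hcn), CLC chloride (Clcn), TRPC, TRPM, TRPV and anoctamin (Ano) genes that had a gene ID in the table. The rule found 83 genes of 12861 with a gene ID. It also takes in Kcnq1ot1, a noncoding RNA, and Trpc4ap, an associated protein, neither of which is a channel subunit.

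The study compared Zac1-transfected Neuro-2A cells (plasmid pRK5-Zac1, 2 libraries) with cells given the chloramphenicol acetyltransferase plasmid pRK5-CAT as a negative control (2 libraries). Neuro-2A is an established mouse neuroblastoma line, labelled as of Swiss Albino origin, so all 4 libraries come from 1 line. Both plasmids were delivered with Lipofectamine, and neither the promoter that drives the insert nor the share of cells that took it up is named in the labels. The libraries of each group are numbered 9 and 12, and nothing says whether they came from separate cultures, so p-values measure only the spread between these libraries, which may be technical. Zac1, a zinc-finger protein that regulates transcription, is the product of the imprinted gene Plagl1, and the comparison asks which transcripts differ after its overexpression.

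Ion channels are membrane proteins that let selected ions pass down their gradients. In excitable cells, voltage-gated sodium and calcium channels carry inward current, potassium channels bring the membrane back towards rest, and pacemaker channels open on hyperpolarization. Most pore subunits work with auxiliary subunits that set their gating and their number at the surface. Calcium-activated potassium channels link the membrane potential to the calcium level inside the cell.

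RNA was read by digital gene expression, which counts short tags cut next to DpnII sites in polyadenylated RNA. The deposited values are normalized tag counts, and whole counts could be recovered from them, between 11578920 and 13840674 per library over listed genes. Plagl1 had normalized tag counts of 3397 and 1475 in the Zac1 libraries and 0 recovered counts in both CAT libraries, where tags of the plasmid and of the chromosomal gene are not told apart. Of 15 sympathoadrenal neuroblastoma markers, 13 were listed, and their summed level was 39585 to 40017 in the Zac1 libraries and 41572 to 44186 in the CAT libraries. Zac1 replicate 9 stood apart in base composition: at a transcript GC content of 60% its fitted deviation from the mean of the 4 libraries was 0.18 on the log2 scale, against 0.04 in Zac1 replicate 12 and -0.10 and -0.06 in the CAT libraries.

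What was counted for the members that the results turn on can be shown from the reference transcripts (GENCODE M21). The sequences below are the last DpnII site before the transcript's 3′ end, in capitals, with the 16 bases that follow it. They are the tags this protocol should favour, computed from the reference; the deposited table gives sums per gene and does not say which tags were seen. The first 3 belong to members that passed the test, and the last 2 to close relatives of Kcnn4.
Kcnn4: GATCcacgttgaggtgcatg
Kcnh3: GATCcacaggctctgctcca
Kcnip3: GATCtacagaccaccagttc
Kcnn1: GATCtgtggaaacccaggat
Kcnn3: GATCagctccacctctttcc
The tag shown is that of 2 of 7 coding transcripts for Kcnn1 and of 2 of 3 for Kcnn4 and for Kcnip3. For Kcnh3 and Kcnn3 it is that of 1 of 1. None of these 5 tags was found for any other gene. Of 82 members with such a tag, 81 shared it with no other gene.

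The potassium channel genes Kcnn4, Kcnh3 and Kcnip3 passed as higher after Zac1 transfection, and no ion channel gene passed as lower. Testing needed an average of 10 or more across the libraries, which 65 of 83 members reached. Of these 65, 4 passed as higher and 0 as lower (limma on log2 of the normalized tag count + 1, Benjamini-Hochberg adjusted p under 0.05), against 0.962% of all 11433 genes tested as higher and 0% as lower. Of these 4, 3 are described here. Kcnn4 and Kcnh3 met the average of 10 only through the Zac1 libraries, so that being low in CAT cells and tested fixes their direction. At an unadjusted limma p under 0.05, 12 members (18.5%) were higher and 0 lower, against 5.23% and 0.962% of all genes tested. Among these 12, Kcnn1, Kcnq1, Kcnt1 and Trpm5 also met the average of 10 only through the Zac1 libraries. Their direction was thus fixed as well, and no lean is read from the 12. In bulk RNA, a change in the number of cells with a transcript and a change in the amount per cell cannot be told apart.

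Kcnn4 (Entrez gene 16534, chromosome 7) encodes the intermediate-conductance calcium-activated potassium channel, which is known mainly from blood cells, epithelia and other non-excitable cells. It had 162 and 122 normalized tag counts in Zac1 replicates 9 and 12, against 1.16 and 2.83 in CAT replicates 9 and 12. Both Zac1 libraries were far above both CAT libraries, where the gene was close to silent. The means were 142 ± 28.7 in Zac1 cells and 1.99 ± 1.19 in CAT cells (SD, n = 2 each), and the log2 fold change was 5.62 ± 0.54 (SE; limma adjusted p = 3.34e-05). In recovered tags this was 290 counts against 4, a ratio of 69.9 after scaling for library size, with an exact 95% interval of 27.0 to 258 that covers counting error only. The CAT value rests on 4 tags, and the ratio was 128 without CAT replicate 12 and 50.5 without CAT replicate 9.

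Kcnh3 (Entrez gene 16512, chromosome 15) encodes a voltage-gated potassium channel of the ether-a-go-go family, best known from forebrain neurons. It had 79.7 and 41.5 normalized tag counts in Zac1 replicates 9 and 12, against 4.36 and 0.90 in the CAT libraries of the same numbers. The groups did not overlap, and Zac1 replicate 9 was the higher of the Zac1 pair. The log2 fold change was 4.20 ± 0.69 (SE; limma adjusted p = 0.00518), with 124 recovered counts against 5. The ratio of scaled counts was 23.9 (exact 95% interval 9.97 to 74.9), at 64.8 without CAT replicate 9 and 13.7 without CAT replicate 12.

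Kcnip3, unlike Kcnn4 and Kcnh3, was already well detected in control cells. Kcnip3 (Entrez gene 56461, chromosome 2) encodes a calcium-binding protein that associates with Kv4 channels and is also known as the transcriptional repressor DREAM. Its normalized tag counts were 285 and 207 in the Zac1 libraries and 72.3 and 93.0 in the CAT libraries (replicates 9 and 12), a log2 fold change of 1.55 ± 0.28 (SE; limma adjusted p = 0.00999). The groups were well apart, and replicate 9 was the higher Zac1 library and the lower CAT library.

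**Figure D1:**
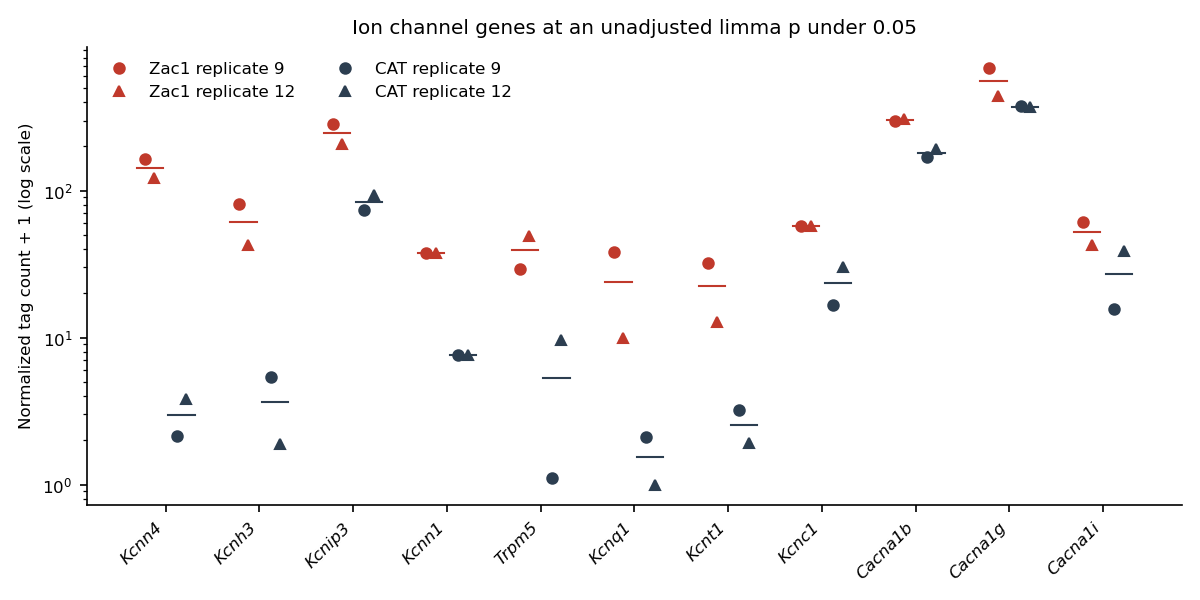
Normalized tag count + 1 (log axis) of 11 ion channel genes at an unadjusted limma p under 0.05, ordered by that p; red marks are Zac1 libraries, dark marks CAT libraries, circles replicate 9, triangles replicate 12, and lines the group means of 2 libraries. In all 11 genes both Zac1 marks lie above both CAT marks, and the gap is widest for Kcnn4, at 162 and 122 against 1.16 and 2.83 before adding 1.

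Leaving out either Zac1 library ended nearly every call, since 1 gene of all those tested then passed as higher, against 110 with both (limma). The folds of these genes stayed close to those above. Without Zac1 replicate 9 the log2 fold changes were 5.41 for Kcnn4 (limma adjusted p = 0.623), 3.74 for Kcnh3 and 1.32 for Kcnip3 (0.766 for both), and without Zac1 replicate 12 they were 5.83, 4.66 and 1.78 (limma adjusted p of 0.127 to 0.129). All 3 stayed past the threshold once each library was adjusted for GC, at 5.42 for Kcnn4, 4.10 for Kcnh3 and 1.52 for Kcnip3 (limma adjusted p of 1.33e-04 to 0.0166). Without a trend of the variance on abundance Kcnip3 did not pass (limma adjusted p = 0.0831), and it did not pass when CAT replicate 9 was left out either (limma adjusted p = 0.0576). DESeq2 on the recovered counts called the same 4 members (1.25% of all genes as higher, 0% as lower), and edgeR's quasi-likelihood test called those 4 and 3 more (1.31% and 0%).

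The Kcnn family holds the small-conductance channels Kcnn1, Kcnn2 and Kcnn3 beside Kcnn4, all gated by calcium through bound calmodulin. Kcnn3 was the family's main transcript in control cells. Its tag counts were 66.0 and 110 in Zac1 replicates 9 and 12, against 95.4 and 92.9 in the CAT libraries, so the groups overlapped. Kcnn2 had 24.3 and 22.7 in Zac1 cells and 11.3 and 25.5 in CAT cells, again with overlap. Kcnn1 differed more, at 36.9 and 36.6 in the Zac1 libraries against 6.67 and 6.56 in the CAT libraries. Its replicates agreed closely within each group, but its log2 fold change of 2.31 ± 0.56 (SE) fell short of the threshold (limma adjusted p = 0.0675). With a CAT mean of 6.61, Kcnn1 met the average needed for testing only through the Zac1 libraries. Being low in CAT cells and tested thus fixed its direction, and its values are given as a description. Kcnn1 passed in edgeR's quasi-likelihood test (adjusted p = 0.0412), in limma without a trend (0.0136) and in limma without the filter on low values (0.0433). It did not pass in DESeq2 on the recovered counts (adjusted p = 0.0794), nor in limma with the GC adjustment (0.111) or equal totals (0.0509). Of 13 alternatives it passed in 4, the replicate block included.

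Kcnn4 thereby held a large part of the family's tags in Zac1 cells and almost none in CAT cells. It made up 56.0% of 298 Kcnn tags in Zac1 replicate 9 (95% Wilson interval 50.4 to 61.6) and 41.8% of 294 in Zac1 replicate 12 (36.3 to 47.5). In CAT replicate 9 it was 0.97% of 103 tags (0.17 to 5.30), and in CAT replicate 12 it was 2.21% of 136 (0.75 to 6.29). These intervals cover counting error only, and those of the Zac1 libraries do not overlap each other. The rest of the family summed to 127 and 169 normalized tag counts in the Zac1 libraries, against 113 and 125 in the CAT libraries. Tags are counted per transcript end and not along its length, so no division by length was made.

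**Figure D2:**
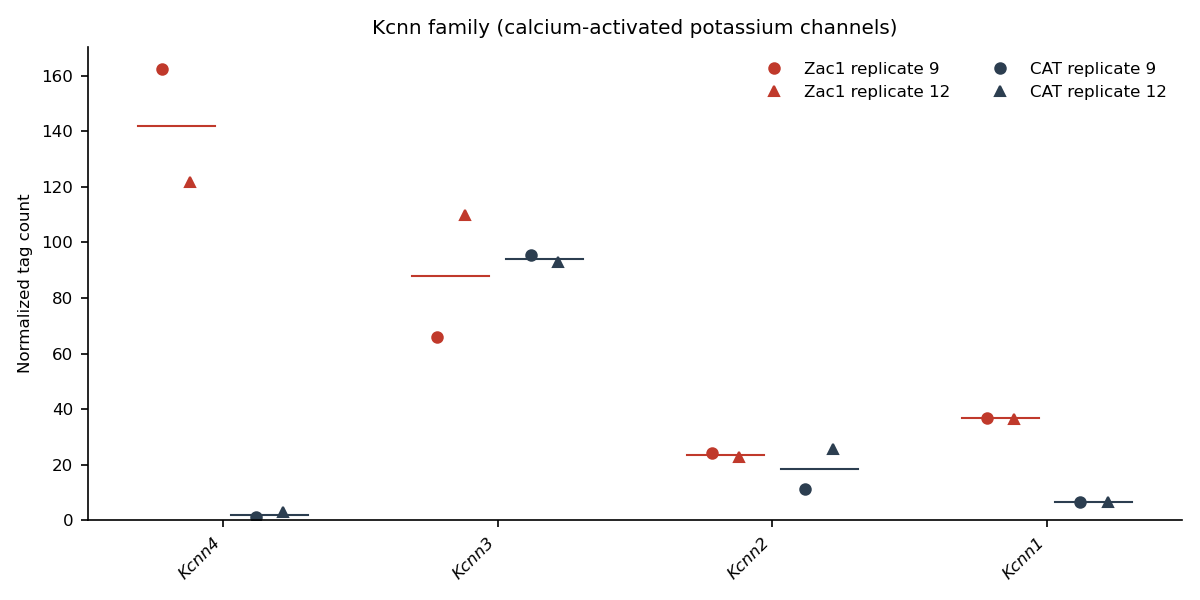
Normalized tag counts (linear axis from 0) of the 4 Kcnn genes; marks are single libraries as in the plot of the 11 genes, with lines at the group means of 2 libraries. Kcnn4 and Kcnn1 have their red Zac1 marks above the dark CAT marks without overlap, while Kcnn3 (66.0 and 110 against 95.4 and 92.9) and Kcnn2 overlap.

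Kcnq1 and Kcnt1 met the minimum mean only through the Zac1 libraries, so that being low in CAT cells and tested fixes their direction; their values are given as a description. Kcnq1 encodes a voltage-gated channel of heart and epithelia, and lies beside Trpm5 in the imprinted domain of Kcnq1ot1. It had 37.0 and 8.86 normalized tag counts in Zac1 replicates 9 and 12, against 1.09 and 0 in the CAT libraries (log2 fold change 3.74 ± 1.06 SE, limma adjusted p = 0.142). From 47 recovered counts against 1, its ratio was 45.3 (exact 95% interval 7.74 to 1827), at 17.5 without Zac1 replicate 9, 72.6 without Zac1 replicate 12, 20.8 without CAT replicate 12 and at least 8.18 without CAT replicate 9, where a floor of 3 counts per CAT library stands in. Kcnt1, a sodium-activated potassium channel gene, had 31.2 and 11.8 in Zac1 cells against 2.20 and 0.92 in CAT cells (3.04 ± 0.89 SE, limma adjusted p = 0.175). Its 44 counts against 3 gave a ratio of 14.1 (4.53 to 71.2), at 7.78 without Zac1 replicate 9 and 23.0 without CAT replicate 9. In both genes replicate 9 carried most of the Zac1 tags. Both passed in edgeR's quasi-likelihood test, with adjusted p of 0.0262 for Kcnq1 and 0.0468 for Kcnt1. Neither passed in DESeq2 on the recovered counts (adjusted p of 0.0866 and 0.124). Of 13 alternatives, Kcnq1 passed in 3 and Kcnt1 in 2. Kcnq1 passed in limma without CAT replicate 9 (adjusted p = 0.0333) and not without CAT replicate 12 (0.177), where the lone CAT library is assumed to vary like the others.

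Of 9 voltage-gated potassium channel genes tested, 1 rose (Kcnh3), 0 fell and 8 did not pass, with a median log2 fold change of 0.40. Kcnc1, a Kv3 channel gene of fast-spiking neurons, had 56.3 and 56.4 normalized tag counts in the Zac1 libraries and 15.7 and 29.2 in the CAT libraries (log2 fold change 1.35 ± 0.43 SE, limma adjusted p = 0.258). Of 7 calcium- or sodium-activated genes tested, 1 rose (Kcnn4) and 6 did not pass. Neither the 2 inward rectifier genes nor the 4 2-pore genes tested passed, with log2 fold changes of -0.26 to 0.31. Kcnj12, an inward rectifier gene, had 120 and 78.1 in Zac1 cells and 86.6 and 85.4 in CAT cells.

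Among 5 potassium channel auxiliary genes tested, Kcnip3 rose and 4 did not pass, over a range of log2 fold changes from -0.76 (Kcnmb2) to 1.55. Kcnab1, a beta subunit gene of Kv1 channels, was lower in both Zac1 libraries, at 480 and 535 against 646 and 648 in the CAT libraries. Its relative Kcnab2 was higher in both, at 673 and 489 against 458 and 434. Their log2 fold changes were -0.35 ± 0.22 and 0.36 ± 0.23 (SE; limma adjusted p of 0.95 for each). Kcnmb4, a beta subunit gene of large-conductance channels, spread widely in Zac1 cells, at 707 and 374 against 559 and 435 in CAT cells.

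**Figure D3:**
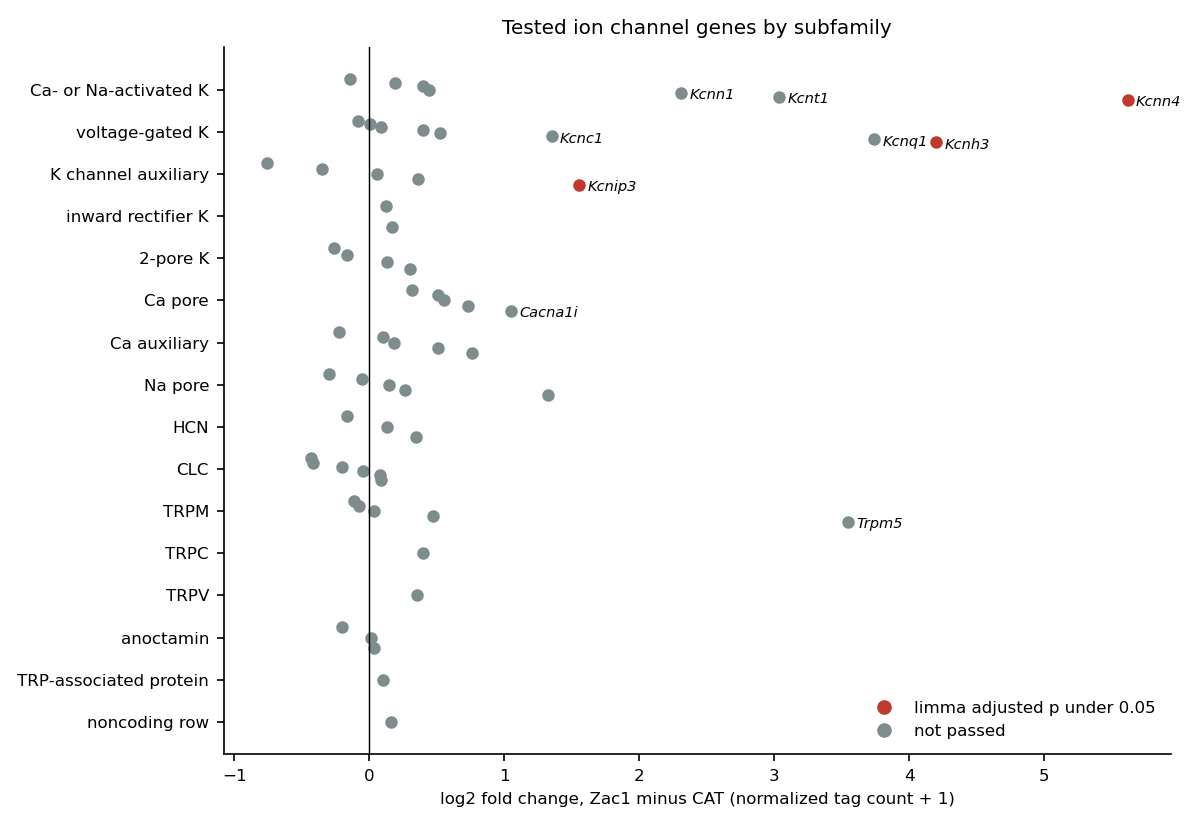
Log2 fold change (Zac1 minus CAT, on normalized tag count + 1) of 62 tested ion channel genes, 1 point each, in rows by subfamily; red points passed at a limma adjusted p under 0.05, grey points did not, and names are given for members at an unadjusted p under 0.05 except Cacna1b and Cacna1g. Most points lie near 0, and the 3 red points are all to the right, from 1.55 for Kcnip3 to 5.62 for Kcnn4.

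The 5 pore genes of voltage-gated calcium channels were each higher in both Zac1 libraries than in both CAT libraries, by less than the 3 genes above, and none passed. Over all genes tested, 17.2% had both Zac1 libraries above both CAT libraries and 16.7% had both below. Cacna1b, the N-type channel of nerve terminals, had 296 and 305 normalized tag counts in Zac1 cells against 169 and 192 in CAT cells (log2 fold change 0.73 ± 0.24 SE, limma adjusted p = 0.290). Cacna1g, a T-type channel, had 684 and 437 in Zac1 cells against 373 and 370 in CAT cells (0.56 ± 0.25 SE, limma adjusted p = 0.735). Cacna1i, another T-type channel, was at 60.3 and 41.5 in Zac1 cells against 14.7 and 37.7 in CAT cells, where replicate 12 came close to the Zac1 libraries (1.05 ± 0.47 SE, limma adjusted p = 0.739).
The P/Q-type gene Cacna1a, at 123.3 and 128 against 85.5 and 90.1, and the L-type gene Cacna1c, at 494 and 371 against 340 and 345, had the smaller log2 fold changes of 0.51 and 0.32. The median of the 5 was 0.56, and leaving out Zac1 replicate 9 put it at 0.53, leaving out Zac1 replicate 12 at 0.71 and the GC adjustment at 0.46, with all 5 above 0 each time. These 5 genes were grouped with earlier results of the data known, and the pattern was seen before it was counted. Of the calcium auxiliary genes 5 were tested and 0 passed. Cacnb3, a cytoplasmic beta subunit gene and the most abundant of them by tags, was at 1135 and 1103 in Zac1 cells and 879 and 1105 in CAT cells.

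Of 5 sodium channel pore genes tested 0 passed, with log2 fold changes from -0.30 to 1.32. Scn8a, the pore of the axon initial segment and the most abundant by tags, was at 397 and 397 in the Zac1 libraries and 396 and 326 in the CAT libraries (log2 fold change 0.14 ± 0.23 SE). The beta subunit gene Scn3b had 409 and 485 in Zac1 cells against 600 and 517 in CAT cells (-0.32 ± 0.23 SE, limma adjusted p = 0.959).

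In the TRP families, Trpm5 was the member with the largest difference. It encodes a calcium-activated cation channel known from taste cells, and had 28.1 and 48.5 normalized tag counts in Zac1 replicates 9 and 12, against 0.10 (0 recovered counts) and 8.56 in CAT replicates 9 and 12. Unlike Kcnn4, Kcnh3 and Kcnip3, it was higher in Zac1 replicate 12. On the log2 scale the difference was 3.55 ± 0.88 (SE; limma adjusted p = 0.0778); leaving out CAT replicate 12 gave 5.11 (limma adjusted p = 3.80e-05), and leaving out CAT replicate 9 gave 1.99 (0.236). In each of those fits the lone CAT library, at 0 counts in the first, is assumed to vary like the other libraries. Trpm5 too reached the minimum mean only through the Zac1 libraries. Trpm7, a channel with a kinase domain, was abundant and overlapped between the groups, at 985 and 1433 in Zac1 cells and 1187 and 1126 in CAT cells. Trpv2, at 247 and 180 against 180 and 151, and Trpc2, at 34.0 and 34.6 against 20.2 and 32.9, were the most abundant of their families and did not pass. Trpc4ap had 2596 and 2063 in Zac1 cells and 2075 and 2232 in CAT cells.

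The members with the most tags in these cells did not pass in either direction. Hcn2, a pacemaker channel gene, led the channel subunits with 1891 and 2496 normalized tag counts in Zac1 cells and 2230 and 2669 in CAT cells. Both replicate 12 libraries were above both replicate 9 libraries. Kcnk3, which encodes the acid-sensitive background channel TASK-1, had 2481 and 1534 in Zac1 cells against 1606 and 1552 in CAT cells, with Zac1 replicate 9 alone above the others. Ano6, a scramblase and channel of the anoctamin family, had 1690 and 847 in Zac1 cells and 1242 and 1102 in CAT cells, so that the Zac1 libraries lay on either side of the controls. Ano8 was at 715 and 616 in Zac1 cells and 647 and 665 in CAT cells. Among CLC genes, Clcn3 was at 784 and 1066 against 905 and 828, and Clcn4-2 at 671 and 742 against 862 and 761. Of 6 CLC genes tested 0 passed, and their median log2 fold change was -0.12. The noncoding Kcnq1ot1 was at 176 and 122.6 in Zac1 cells and 147 and 117 in CAT cells. The absolute log2 fold change was under 0.5 for 47 of 65 members.

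**Figure D4:**
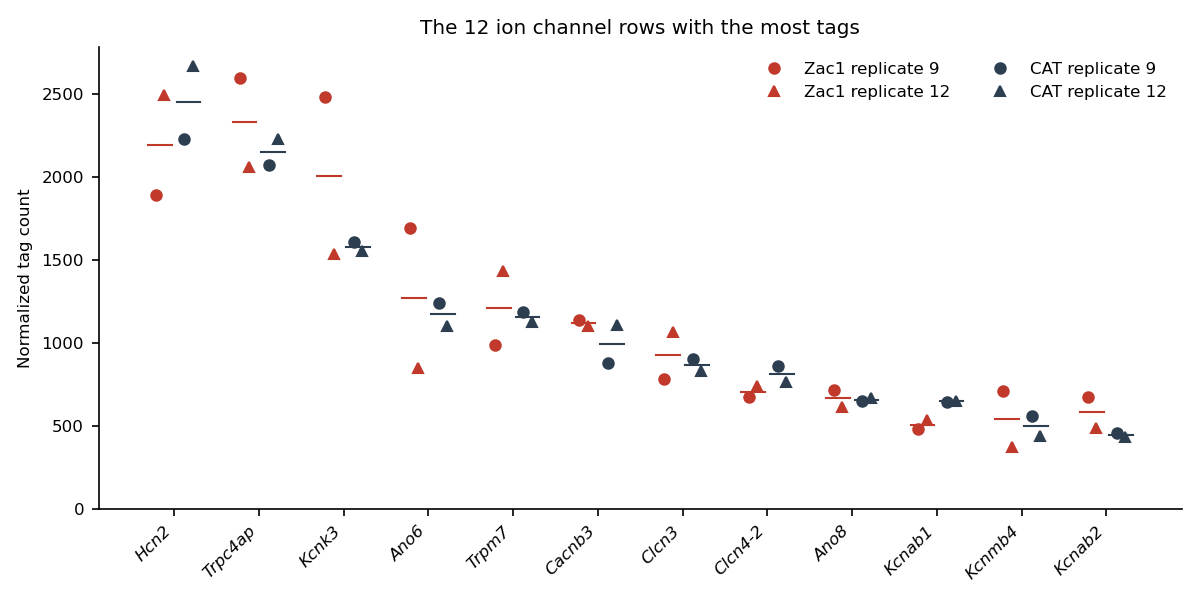
Normalized tag counts (linear axis from 0) of the 12 members with the highest mean over the 4 libraries; marks are single libraries as in the plot of the 11 genes and lines are group means of 2 libraries. Red and dark marks overlap in most genes, and Zac1 replicate 9 stands away from the rest in Kcnk3 (2481) and Ano6 (1690).

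Across the tested members the values leaned towards Zac1, and how far depended on the library. Of 65, 47 had a log2 fold change above 0 and 18 below, against 48.4% above 0 over all genes tested. The median was 0.16, against -0.01 over all genes tested. Set against the mean of the CAT libraries, the members' median was 0.39 in Zac1 replicate 9 and 0.11 in Zac1 replicate 12, while that of all genes was -0.0046 and 0.0021. Zac1 replicate 9 exceeded Zac1 replicate 12 in 41 members, against 48.3% of all genes. Both Zac1 libraries were above both CAT libraries in 24 members (36.9%) and below in 6 (9.23%), against the 17.2% and 16.7% given above. With the GC adjustment these counts were 22 and 8, against 17.2% and 16.1% of all genes. The median transcript GC content was 58.7% for the 4 genes that passed, 55.3% for the tested members and 51.1% for all genes tested, and its part in the lean was not tested beyond that adjustment. Of the 65, 7 (10.8%) had a mean under 10 in CAT cells, against 2.24% of all genes tested, and 0 had one in Zac1 cells. Those 7, among them Kcnn4, Kcnh3 and Kcnn1, passed the filter through the Zac1 libraries. Of the 58 members with both group means at 10 or more, 40 (69.0%) were above 0, with a median of 0.13, against 47.5% and -0.02 for all genes with such means. Both Zac1 libraries were above both CAT libraries in 17 of these 58 (29.3%) and below in 6 (10.3%), against 15.9% and 16.8% of such genes.

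**Figure D5:**
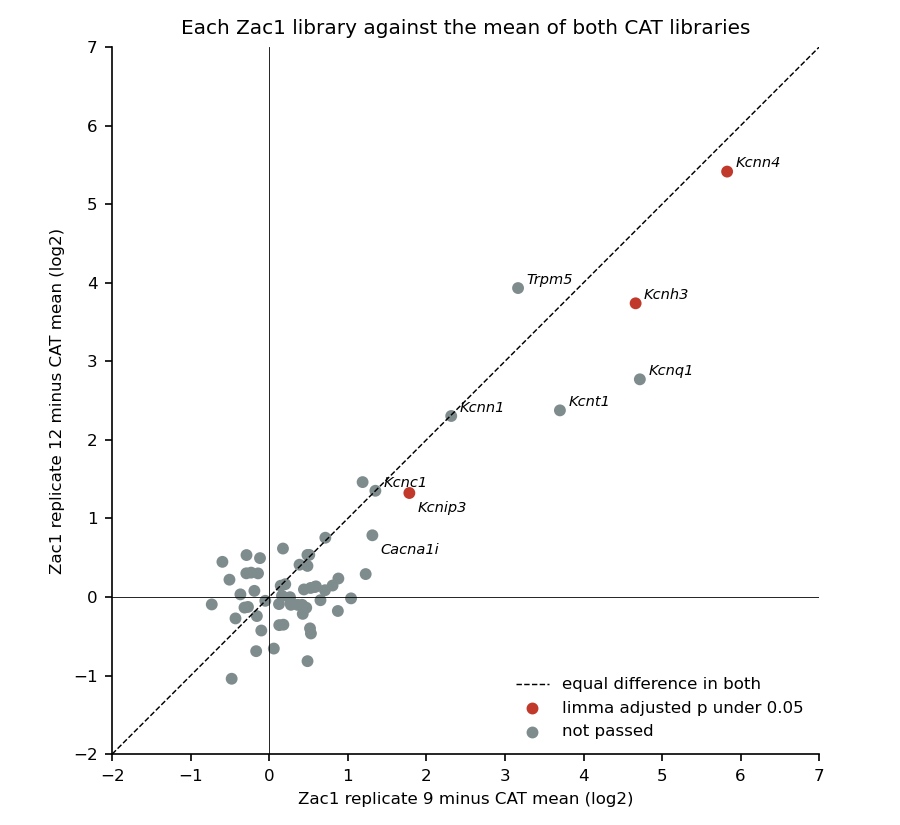
Difference of Zac1 replicate 9 (horizontal axis) and Zac1 replicate 12 (vertical axis) from the mean of both CAT libraries, in log2 of normalized tag count + 1, for 62 tested members; red points passed at a limma adjusted p under 0.05 and the dashed line marks equal differences. Most points sit near 0, and the 3 red points are positive on both axes and on the replicate 9 side of the line, with Kcnn4 at 5.83 and 5.41.

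The 18 members below the minimum had means of 2.73 to 8.98 over the 4 libraries and were not tested. Among them were Kcna1, Kcna4, Kcnh6, Kcnj9, Kcnk2, Kcnk4, Kcnk5, Kcnab3, Scn1a, Scn4a, Cacna2d2, Cacng2, Cacng4, Clcn1, Trpc7, Trpm6 and Trpv4. Both Zac1 libraries were above both CAT libraries in 6 of the 18 and below in 1, and 11 overlapped. The matching shares among all genes below the minimum were not counted, so no lean is read from these numbers. Examples of either direction, named after their values were seen, were Kcnk4, with 26 recovered tags in Zac1 cells and 4 in CAT cells, and the muscle chloride channel gene Clcn1, with 1 in Zac1 cells and 10 in CAT cells.

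Apart from the glial marker Mbp, markers of other cell types were scarce, but not all were level between the groups. Summed levels were 17.4 and 35.6 in Zac1 cells against 16.6 and 15.0 in CAT cells for 3 listed fibroblast markers, 21.4 and 14.8 against 22.3 and 27.3 for 3 endothelial markers, and 10.7 and 7.91 against 12.1 and 7.45 for 2 macrophage and blood markers. The muscle markers Des and Myog summed to 34.1 and 21.7 in Zac1 cells against 7.71 and 4.64 in CAT cells, with Myod1, Acta1 and Ckm not listed. The 4 listed glial markers summed to 416 and 387 against 333 and 243, nearly all of it Mbp, with S100b at 26.3 and 9.86 in Zac1 cells and 0 recovered counts in CAT cells. Their part in the rise of the channel genes was not tested.

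As Kcnn4 had the largest difference, the 250 bases before its RefSeq start (GRCm38.p6, chr7:24370013-24370262, plus strand) are shown to let its promoter be read.
Kcnn4 promoter: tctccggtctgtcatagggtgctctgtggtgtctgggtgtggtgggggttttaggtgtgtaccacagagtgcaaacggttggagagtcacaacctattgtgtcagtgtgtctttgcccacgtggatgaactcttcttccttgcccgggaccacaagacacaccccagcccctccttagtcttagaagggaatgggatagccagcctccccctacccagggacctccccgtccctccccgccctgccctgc
The letters GGGGCCC, a run of G followed by a run of C of the kind reported for Zac1 binding, were searched on both strands of these windows. They are not in the Kcnn4 window, nor in those of Kcnip3, which also passed. Of the 4 members that passed, 2 had a promoter in the table. The letters are in 5.69% of 32851 promoter windows of the same length, and in 6 of 83 windows (7.23%) of ion channel genes.

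For comparison with channels outside the symbol rule, of 81 ligand-gated, intracellular, epithelial, gap junction and water channel genes, 59 were tested, 1 rose, 0 fell and 58 did not pass (limma, Benjamini-Hochberg adjusted p under 0.05), against 0.962% of all genes tested as higher and 0% as lower. At an unadjusted limma p under 0.05, 9 were higher and 0 lower, against 5.23% and 0.962% of all genes tested. Among these 9, Aqp2, Aqp6, Itpr3 and P2rx1 had CAT means of 2.41, 3.99, 2.63 and 3.02 and met the minimum mean only through the Zac1 libraries. Their direction was thus fixed, and no lean is read from the 9. Their median log2 fold change was 0.14, against -0.01 over all genes tested. The gene that passed as higher was Aqp2, the vasopressin-regulated water channel of the kidney collecting duct. Like Kcnn4 and Kcnh3, it met the minimum mean only through the Zac1 libraries, so that being low in CAT cells and tested fixes its direction. It had 56.4 and 33.6 normalized tag counts in Zac1 cells against 0.06 and 4.76 in CAT cells (4.17 ± 0.83 SE on the log2 scale, limma adjusted p = 0.0198). It did not pass without Zac1 replicate 9 (3.81, limma adjusted p = 0.824), without Zac1 replicate 12 (4.54, 0.142) or without a trend (0.0902). Leaving out CAT replicate 12 put the difference at 5.39 and leaving out CAT replicate 9 at 2.95 (log2). The most abundant of these genes by tags were the intracellular channel gene Clic1, at 10027 and 7263 against 8216 and 8401, and the mitochondrial porin genes Vdac3, at 5487 and 7733 against 8102 and 7951, and Vdac1, at 5906 and 6940 against 6407 and 6029.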

How the data were processed

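The deposited signal was 1 table of normalized tag counts for 4 libraries. Per the labels' protocols each came from 2 µg of total RNA, cut with DpnII, with 15 cycles of PCR. Per the name of the deposited table these are pseudocounts after TMM normalization by the authors, and the submitters' processing notes list edgeR and the mm9 build. No source names the tag mapping or the strand handling, so overlapping genes and near-identical copies are uncertain.

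Whole counts were recovered by inverting the formula for such pseudocounts (common dispersion 0.0364); they returned 100% of the deposited values within 1e-06. Totals were 12442532 and 12812457 for Zac1 replicates 9 and 12, and 11578920 and 13840674 for CAT replicates 9 and 12. The 5 lines without a gene ID held at most 0.00897% of counts and were left out.

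The test was limma 3.58.1 in R 4.3.3 on log2(value + 1), with a variance trend and no replicate term, two-sided, with Benjamini-Hochberg adjustment over 11433 genes with a mean of at least 10. Fold changes on this scale understate low genes, and p-values rest on 2 libraries per group. Alternatives were pseudocounts of 0.5 and 5, no filter, no trend, equal totals, a replicate block, each library left out, a smooth GC correction per library (GC known for 11354 tested genes), edgeR 4.0.16 and DESeq2 1.42.0 on the recovered counts. Methods were tested on simulated data.

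Members and lists were chosen with earlier results of these data known. Genes were named if they passed, had an unadjusted p under 0.05, belonged to the Kcnn family, were among the 12 most abundant or led a subfamily, with Kcnq1ot1 added; of other channel genes, those that passed and the 3 most abundant. Cacna1a, Cacna1c, Kcnmb2, Kcnk4, Clcn1, Aqp6, Itpr3, P2rx1 and the neighbours of Kcnq1 were named after their values were seen. Some genes the rule takes in are not reported here by name, though they are in the fits and counts. Tags come from GENCODE M21 and the promoter from RefSeq, both of another build than mm9.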

Additional observations from a re-analysis of the deposited data

How the results depend on the processing

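Ion channel genes passing as higher numbered 4, with 7 in edgeR's quasi-likelihood test, 8 with the replicate block and 0 to 5 when 1 library was left out (0 without Zac1 replicate 9 or without Zac1 replicate 12). Of the 4, 2 had a mean of at least 10 in both groups, a limit added after seeing the data. Over all genes 110 passed as higher, 279 with the replicate block and 1 to 154 with 1 library left out, and 0 as lower, with 0 to 5 when 1 library was left out (5 without CAT replicate 9). The members' median log2 fold change of 0.16 ranged from 0.11 to 0.39 with 1 library left out. The 1 call among the other channel genes became 2 in edgeR's quasi-likelihood test, 2 under equal totals, 0 without a trend, 4 with the replicate block and 0 to 2 with 1 library left out. No ion channel gene passed as lower in any alternative run. The causes of these shifts were not tested.

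Libraries with the same number share only that number by the labels, and the correlation of their deviations from the group means was 0.20 over the tested genes. With the replicate block Kcnn1, Kcnq1, Kcnt1 and Trpm5 passed beside the 4 that passed without it.

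Of 32 genes with a value under each alternative, 12 that had not passed changed sign, in 11 of them only when a library was left out. Their ranges over the fits with 1 library left out were -0.46 to 0.53 for Ano6, -0.091 to 0.12 for Ano8, -0.14 to 0.30 for Clcn3, -0.37 to 0.033 for Hcn2, -0.14 to 0.47 for Kcnj12, -0.042 to 0.65 for Kcnk3, -0.40 to 0.52 for Kcnmb4, -0.11 to 0.99 for Kcnn2, -0.51 to 0.22 for Kcnn3, -0.10 to 0.42 for Kcnq1ot1, -0.061 to 0.27 for Trpc4ap and -0.23 to 0.31 for Trpm7. Ano8 was at -0.19 after the GC adjustment. Genes with few tags in CAT cells, such as Kcnn4 with 4, have fold changes that depth limits.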

Other observations

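Kcnq1, Trpm5 and Kcnq1ot1 neighbour each other and the cyclin-dependent kinase inhibitor gene Cdkn1c in the RefSeq gene order, and the run was looked at after their values were seen. Cdkn1c had 29.2 and 10.8 normalized tag counts in Zac1 replicates 9 and 12 against 1.11 and 0.93 in CAT replicates 9 and 12 (log2 fold change 3.23 ± 0.94 SE, limma adjusted p = 0.17). Like Trpm5 and Kcnq1, Cdkn1c reached the minimum mean of 10 only through the Zac1 libraries, so that being low in CAT cells and tested fixes the direction of all 3, and none passed. The noncoding Kcnq1ot1, listed between Kcnq1 and Cdkn1c in that order, had tag counts that overlapped between the groups. The order does not show whether neighbouring genes share sequence. As the strand handling is not named, tags of Kcnq1 and Kcnq1ot1 may not be told apart. Of the next listed genes, Tssc4 on the Trpm5 side was higher in both Zac1 libraries, at 38.9 and 16.8 against 15.5 and 15.0, with a log2 fold change of 0.71. Beyond Tssc4, Cd81 overlapped between the groups, at 3881 and 2744 against 2351 and 3196 (log2 fold change 0.25). On the Cdkn1c side Slc22a18 (30.2 and 11.8 against 21.04 and 17.8), Phlda2 (29.0 and 66.3 against 10.6 and 93.4) and Nap1l4 (2625 and 2039 against 2230 and 2382) overlapped between the groups.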
